A study of Mus musculus with 15 samples.

Results

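Mitochondrial ribosomal proteins build the ribosome inside mitochondria, and their genes were taken from the count table by symbol. A symbol had to start with Mrpl or Mrps and go on with a number and at most a letter a or b, and pseudogene rows were left out. This gave 76 of the 27019 gene symbols, and all 76 passed the filter on low counts that left 16057 genes for testing. The mitochondrial ribosome translates the small set of mRNAs made from mitochondrial DNA, which encode subunits of the respiratory chain and the ATP synthase. Its rRNAs also come from mitochondrial DNA, whereas its proteins are encoded in the nucleus, made in the cytosol and imported. Resting T cells are small and divide rarely, and after engagement of their antigen receptor they grow, divide and enlarge their mitochondria, and mitochondrial translation is known to matter for their effector functions.

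By the known structure of the mammalian ribosome, 50 members belong to the large subunit and 25 to the small subunit. Mrps18a and Mrps30 are counted in the large subunit, where their proteins sit in spite of their names. Mrps36 belongs to neither, since its protein is now placed in the oxoglutarate dehydrogenase complex. By a rule on the symbol, mainly its number, 44 members were classed as having a counterpart in the bacterial ribosome. The same rule classed 31 as specific to mitochondria. This split was not checked against the homology of each protein, so single members may be misplaced. The members lie on 17 chromosomes.

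Poly(A) RNA of splenic CD8+ T cells was sequenced in 8 libraries, 2 in each of 4 groups. The groups were Susd2-/- cells at day 3, WT cells at day 3, Susd2-/- cells at day 0 and WT cells at day 0, all from OT-I mice of the C57BL/6 strain aged 8-10 weeks. OT-I mice carry a T cell receptor transgene specific for an ovalbumin peptide, so most of their CD8+ T cells share that receptor. Day 0 cells were untreated, and day 3 cells came out of splenocytes kept for 3 days with the peptide OVA257-264. In each group the T cells were purified by removing other cells with magnetic beads, so RNA of other spleen cells can remain. Whether the libraries within a group stem from different mice is not stated. Day 3 libraries were numbered 1 and 2 and day 0 libraries 3 and 4, and no group was cultured without the peptide. Time, culture, peptide and library number therefore cannot be told apart in the comparisons of day 3 with day 0. Susd2, which encodes a sushi domain membrane protein, had 0 and 2 counts in the Susd2-/- libraries at day 3 against 16 and 10 in the WT libraries. At day 0 it had 1 and 3 counts in the Susd2-/- libraries against 90 and 80 in the WT libraries, and it was called lower at day 0 (adjusted p = 2.32e-05, edgeR) and did not pass at day 3 (adjusted p = 0.112).

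Library totals ran from 26829807 to 53846911 counts, of which 56533 to 270216 fell on the members. Single members had 216 to 10802 counts in a library. Cd8a averaged 724 and 762 CPM in Susd2-/- and WT cells at day 3, and 1211 and 1240 CPM in Susd2-/- and WT cells at day 0. CPM are counts scaled to a common library size with edgeR's TMM factors. Cd4 was below 0.42 CPM in every library. Of the other T cell and CD8 markers, Cd3d (-0.34), Cd3g (-0.41) and Cd8b1 (-0.27) were lower in Susd2-/- than in WT cells at day 0 on the log2 scale, while Cd3e, Trac and Cd8a did not pass. Libraries of a group varied by 10.0% at day 3 and by 5.35% at day 0, as edgeR's biological coefficient of variation.

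Promoter windows of the members were searched for 4 motifs that are known for genes of mitochondrial proteins, because the members moved together between the days. RefSeq (GRCm38.p6) held 73 windows, each from 250 bases before to 50 after a transcription start, for 67 of the 76 members. The motifs were CCGGAAG, the core bound by ETS factors such as GABP, GCGCATGC, the core of the NRF1 site, AAGATGGC, bound by YY1, and CACGTG, the E-box bound by Myc and Max. Both strands were read, overlapping matches of a motif were counted once, and no 2 motifs shared bases in a member's window. The ETS letters were in 24 member windows, 32.9%, and in 8.86% of all 32851 windows of this length. The YY1 letters were in 12 member windows (16.4%, against 2.75% of all windows) and the NRF1 letters in 8 (11.0%, against 2.71%). The E-box was in 6 member windows, 8.22%, close to its share of 7.15% among all windows. These 6 windows belong to 4 of the 67 members, since several of them are overlapping windows of Mrpl2. At least 1 of the 4 motifs was in 40 member windows, 54.8%, and in 19.1% of all windows. A match describes the letters and is not a bound site.

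The windows of 4 members, chosen after their values were seen, are printed 5′ to 3′ on the strand of the gene, with matched motif letters in capitals on either strand. Mrpl17 is among the members that rose most by day 3, Mrps16 had a lower level in Susd2-/- cells at day 0, Mrpl33 passed no test between the days, and Mrpl24 fell by day 3. The Mrpl17 window (chr7:105811038-105811337, minus strand) holds the ETS and the NRF1 letters, the Mrps16 window (chr14:20393441-20393740, minus strand) holds the ETS letters at 2 places as the reverse complement CTTCCGG (a second RefSeq window of Mrps16 holds none), the Mrpl33 window (chr5:31613701-31614000, plus strand) holds NRF1 and ETS letters side by side, and the Mrpl24 window (chr3:87919294-87919593, plus strand) holds none of the 4 motifs.
Mrpl17: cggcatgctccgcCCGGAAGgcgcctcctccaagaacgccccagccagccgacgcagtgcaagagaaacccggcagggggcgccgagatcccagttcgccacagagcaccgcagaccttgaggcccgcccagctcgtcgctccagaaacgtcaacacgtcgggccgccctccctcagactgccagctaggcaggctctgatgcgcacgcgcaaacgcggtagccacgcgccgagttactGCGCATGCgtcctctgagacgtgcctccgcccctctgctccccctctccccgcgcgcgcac
Mrps16: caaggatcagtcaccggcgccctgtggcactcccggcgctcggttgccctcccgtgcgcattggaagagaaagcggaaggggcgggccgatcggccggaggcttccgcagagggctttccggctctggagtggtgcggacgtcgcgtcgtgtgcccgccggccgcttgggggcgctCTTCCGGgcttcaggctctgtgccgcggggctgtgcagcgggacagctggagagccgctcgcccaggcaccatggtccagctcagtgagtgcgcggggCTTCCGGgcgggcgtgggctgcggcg
Mrpl33: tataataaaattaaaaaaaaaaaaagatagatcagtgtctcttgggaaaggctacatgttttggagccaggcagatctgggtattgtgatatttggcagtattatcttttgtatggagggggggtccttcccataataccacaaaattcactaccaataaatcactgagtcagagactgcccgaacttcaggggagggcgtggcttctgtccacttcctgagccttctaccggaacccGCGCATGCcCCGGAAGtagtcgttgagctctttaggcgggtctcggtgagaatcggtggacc
Mrpl24: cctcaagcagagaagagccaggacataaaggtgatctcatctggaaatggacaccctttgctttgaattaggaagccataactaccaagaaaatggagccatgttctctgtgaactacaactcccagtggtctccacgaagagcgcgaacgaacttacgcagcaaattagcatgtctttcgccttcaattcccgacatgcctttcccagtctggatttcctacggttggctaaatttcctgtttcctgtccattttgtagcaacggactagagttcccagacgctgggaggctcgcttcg
Motifs were present both in members that moved and in a member that passed no test between the days. The median log2 fold change of day 3 over day 0 was 1.35 in Susd2-/- and 1.10 in WT for the 24 members with the ETS letters, and 1.55 and 1.18 for the 43 matched members without them. It was 1.22 in Susd2-/- and 1.04 in WT for the 8 members with the NRF1 letters, against 1.51 and 1.18 for the 59 without. For the YY1 letters the order was the other way, with 1.57 and 1.23 for 12 members and 1.49 and 1.17 for the 55 without. The 4 members with an E-box had 1.53 and 1.27, against 1.49 and 1.17 for the 63 without, and none of these differences was tested.

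Members together made up 0.474% and 0.502% of the counts of the Susd2-/- libraries at day 3, against 0.219% and 0.211% at day 0. In WT cells they made up 0.483% and 0.462% at day 3, against 0.238% and 0.236% at day 0. All 4 day 3 libraries lay above all 4 day 0 libraries, and the ratio of group means of day 3 over day 0 was 2.27 in Susd2-/- and 1.99 in WT cells. Between genotypes, both Susd2-/- libraries were below both WT libraries at day 0 (0.215% ± 0.00608 against 0.237% ± 0.00187, SD, n = 2 each, ratio 0.907). At day 3 the genotypes overlapped, at 0.488% ± 0.0194 in Susd2-/- and 0.473% ± 0.0146 in WT cells (SD, n = 2 each, ratio 1.03). No test of this summed share is given, since the members were chosen with results of these libraries known. The exact 95% binomial interval of the lowest share, 0.211%, ran from 0.209% to 0.212%. It covers binomial counting error only. Over all genes, lanes of a library differed by more than that (chi-square per degree of freedom 3.01 to 3.17), so the interval is too narrow even for repeated reading of a library. In bulk libraries, a share cannot tell more RNA per cell from a change in the mix of cells.

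**Figure D1:**
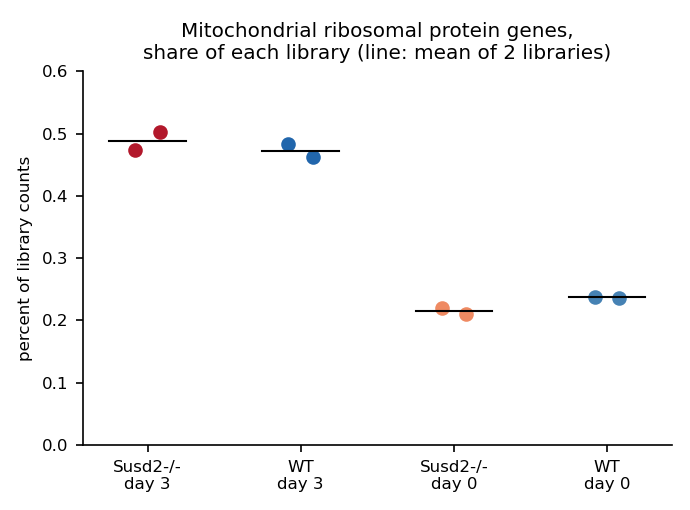
Percent of each library's counts that fell on the 76 mitochondrial ribosomal protein genes, by group, with 1 point per library and a line at the mean of the 2 libraries. The day 3 libraries sit between 0.462% and 0.502%, and the day 0 libraries between 0.211% and 0.238%.

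The level of most members rose by day 3. In Susd2-/- cells 73 of 76 members were higher at day 3 than at day 0 (edgeR quasi-likelihood test, adjusted p below 0.05; 36.7% of all genes tested were higher), 1 was lower (39.7% of all genes tested) and 2 did not pass; 76.4% of all genes tested changed in either direction. In WT cells 72 were higher (36.2% of all genes tested), 1 was lower (39.0% of all genes tested) and 3 did not pass; 75.2% of all genes tested changed in either direction. The median log2 fold change of the members was 1.51 in Susd2-/- and 1.17 in WT cells, beside -0.12 and -0.14 for all genes tested. Rises of at least 2-fold were seen in 58 members in Susd2-/- cells and in 54 in WT cells, a size reached by 23.4% and 22.6% of all genes tested, and 52 members reached it in both genotypes. Markers of other cells moved between the days as well. The 5 monocyte and macrophage markers summed to at most 0.135 CPM in the day 3 libraries, against 81.9 and 78.8 CPM in Susd2-/- and 36.8 and 39.5 CPM in WT cells at day 0, and Adgre1, Vcam1 and C1qa were at 0 at day 3. The plasma cell markers summed to at most 0.129 CPM at day 3, against 7.15 and 6.02 CPM in Susd2-/- and 35.4 and 33.7 CPM in WT cells at day 0, and the NK cell markers to at most 0.849 CPM, against 8.48 and 8.68 CPM in Susd2-/- and 12.7 and 11.9 CPM in WT cells. All 4 T cell markers and both CD8 markers were lower at day 3 in each genotype, with Cd8b1 lower by 1.61 in Susd2-/- and 1.68 in WT cells on the log2 scale. The part of these shifts in the rise of the members was not tested.

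**Figure D2:**
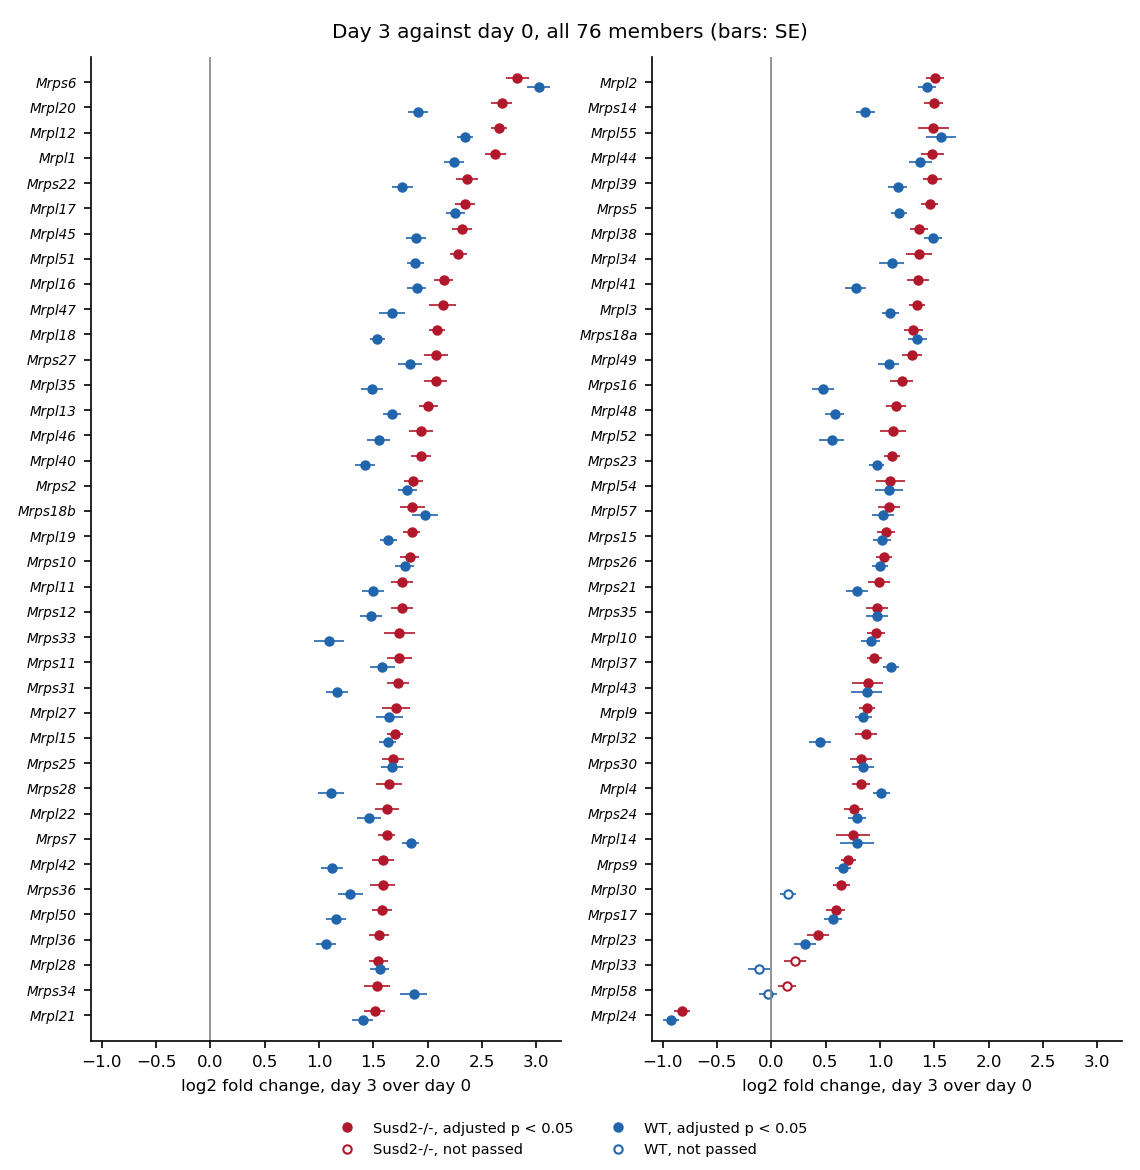
Log2 fold change of day 3 over day 0 for each of the 76 members in Susd2-/- (red) and WT (blue) cells, with bars for 1 SE, filled points for members past the test and open points for those not. All but Mrpl24, Mrpl58, Mrpl33 and Mrpl30 have filled points right of 0 in both genotypes, and most red points lie right of the blue point of the same member.

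Among proteins of the small subunit, Mrps6 rose most. Mrps6 (chromosome 16, 92058270 to 92112227, plus strand, GRCm38) encodes a protein with a counterpart in the bacterial small subunit. It had 63.8 and 67.5 CPM in Susd2-/- cells at day 3 against 8.92 and 9.64 CPM at day 0, a log2 fold change of 2.82 ± 0.106 (SE). In WT cells it had 67.0 and 58.8 CPM at day 3 against 8.12 and 7.38 CPM at day 0, a log2 fold change of 3.02 ± 0.108 (SE). The libraries of the 2 days did not overlap in either genotype. Exons of Slc5a3, on the same strand, cover 19.9% of the Mrps6 exon bases, and Slc5a3 itself did not pass the test in Susd2-/- cells (log2 fold change -0.01) and rose by 0.57 in WT cells. Mrps22, a small subunit protein found only in mitochondrial ribosomes, had 60.8 and 59.5 CPM in Susd2-/- cells at day 3 against 11.8 and 11.7 CPM at day 0. In WT cells it had 55.6 and 59.5 CPM against 18.0 and 15.8 CPM. Its log2 fold change was 2.36 ± 0.0989 in Susd2-/- and 1.77 ± 0.0958 in WT cells (SE). All 25 small subunit members rose in both genotypes, with medians of 1.62 and 1.17.

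Mrps12 and Mrps5, whose proteins sit near the decoding site, rose by 1.76 ± 0.103 and 1.46 ± 0.0755 in Susd2-/- and by 1.48 ± 0.102 and 1.18 ± 0.0748 in WT cells (log2, SE). The smallest rises in the small subunit were those of Mrps17 in Susd2-/- cells (0.59 ± 0.0861) and Mrps16 in WT cells (0.48 ± 0.104). Both belong to the bacterial core of the subunit, so core proteins stand at both ends of the order. Mrps36, which is not a ribosomal protein, rose by 1.59 ± 0.115 in Susd2-/- and 1.29 ± 0.114 in WT cells.

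In the large subunit, the stalk that recruits elongation factors showed unequal rises. Mrpl12 (chromosome 11, 120484613 to 120489065, plus strand) encodes the stalk protein, which in human cells also binds the mitochondrial RNA polymerase. It had 210 and 213 CPM in Susd2-/- cells at day 3 against 35.6 and 31.6 CPM at day 0, a log2 fold change of 2.65 ± 0.0725 (SE). In WT cells it had 217 and 211 CPM at day 3 against 42.2 and 42.1 CPM at day 0, a log2 fold change of 2.34 ± 0.0713 (SE). Mrpl10, which anchors Mrpl12 to the ribosome, rose less, by 0.97 ± 0.0852 and 0.92 ± 0.086, and Mrpl11 at the base of the stalk rose by 1.76 ± 0.105 and 1.50 ± 0.103. Mrpl1, the protein of the other stalk, through which used tRNAs leave, rose by 2.62 ± 0.0941 and 2.24 ± 0.0924.

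Mrpl20 (chromosome 4, 155802878 to 155809975, plus strand), a large subunit protein with a bacterial counterpart, had 112 and 131 CPM in Susd2-/- cells at day 3 against 20.5 and 17.5 CPM at day 0. The WT libraries had 123 and 110 CPM at day 3 against 32.0 and 30.2 CPM at day 0. Its log2 fold change was 2.68 ± 0.0987 in Susd2-/- and 1.91 ± 0.0946 in WT cells (SE), and the day 3 levels of the genotypes overlapped. Mrpl17, whose promoter window is printed above with ETS and NRF1 letters, had 71.0 and 76.9 CPM in Susd2-/- cells at day 3 against 15.3 and 13.9 CPM at day 0. Its WT libraries had 77.2 and 83.5 CPM against 16.2 and 17.4 CPM, and its log2 fold changes were 2.34 and 2.25. Mrpl45, at the exit of the tunnel where new proteins meet the inner membrane, rose by 2.31 ± 0.0924 in Susd2-/- and 1.89 ± 0.0907 in WT cells. Mrpl44, whose protein resembles an RNase III enzyme, rose by 1.48 ± 0.105 and 1.37 ± 0.104. Over the 50 large subunit members, 47 rose in Susd2-/- and 46 in WT cells, with medians of 1.49 and 1.26.

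A few large subunit members did not follow. Mrpl24 (chromosome 3, 87919506 to 87923672, plus strand), whose bacterial counterpart starts the assembly of the large subunit, fell. It had 59.6 and 64.3 CPM in Susd2-/- cells at day 3 against 109 and 110 CPM at day 0, and 65.2 and 63.1 CPM in WT cells at day 3 against 117 and 126 CPM at day 0. The log2 fold change was -0.82 ± 0.0703 in Susd2-/- and -0.92 ± 0.0707 in WT cells (SE), and it was the one member lower in both. Rrnad1, which lies on the opposite strand, covers 26.3% of the Mrpl24 exon bases and also fell, by 0.94 and 1.04 on the log2 scale. The strand setting of the counting is not given in the sources used here, so reads of such overlapping genes may be mixed.

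Mrpl58, a peptidyl-tRNA hydrolase that frees stalled ribosomes and became part of the large subunit, did not pass the test in either genotype. Its libraries had 43.0 and 46.4 CPM in Susd2-/- cells at day 3 against 39.9 and 41.1 CPM at day 0, and 43.1 and 47.1 CPM in WT cells at day 3 against 45.3 and 46.7 CPM at day 0. Its log2 fold changes of 0.14 ± 0.0842 and -0.03 ± 0.0845 (SE) did not pass (adjusted p = 0.125 and 0.758), although without either WT day 3 library the Susd2-/- value passed (lowest adjusted p = 0.0321). Mrpl33, the printed window with adjacent NRF1 and ETS letters, had 29.4 and 35.2 CPM in Susd2-/- cells at day 3 against 28.5 and 27.1 CPM at day 0. Its WT libraries had 31.1 and 31.7 CPM at day 3 against 34.6 and 33.3 CPM at day 0. Neither fold change passed (0.22 ± 0.103, adjusted p = 0.0601, and -0.11 ± 0.103, adjusted p = 0.326), though the Susd2-/- one passed without WT day 0 library 3, Susd2-/- day 3 library 1 or either WT day 3 library (lowest adjusted p = 0.0101). Mrpl30 rose in Susd2-/- cells by 0.65 ± 0.0751 and did not pass in WT cells (0.16 ± 0.0745, adjusted p = 0.0637), where it passed without WT day 3 library 2 or either Susd2-/- day 3 library (lowest adjusted p = 0.0202). Mrpl23 rose by 0.43 ± 0.101 in Susd2-/- and by 0.31 ± 0.101 in WT cells, and the WT rise was lost without WT day 0 library 4 (adjusted p = 0.104).

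Across the 76 members, the log2 fold changes of day 3 over day 0 in Susd2-/- and in WT cells had a Pearson r of 0.92 and a Spearman rho of 0.90. The points are genes of the same libraries and are not independent. Other members with known extra or disputed roles also rose in both genotypes. Mrps18a and Mrps30, placed in the large subunit, rose by 1.31 and 0.83 in Susd2-/- and by 1.35 and 0.84 in WT cells (log2). Mrps18b is a small subunit protein that only its symbol classed as having a bacterial counterpart, and Mrps34 is one found only in mitochondrial ribosomes. Mrps18b and Mrps34 rose by 1.86 and 1.54 in Susd2-/- and by 1.98 and 1.87 in WT cells. Exons on the opposite strand cover 30.5% of the Mrps18b and 63.4% of the Mrps34 exon bases. With the 23 members left out whose exons overlap those of another gene by at least 5%, 51 of 53 members were called in Susd2-/- and 50 in WT cells.

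Levels between members were compared per kilobase of the principal transcript (GENCODE M21). At day 3 Mrpl12 was highest, with 161 CPM per kb in Susd2-/- and 162 in WT cells, before Mrpl20 (159 and 153) and Mrpl42 (132 and 115). At day 0 the order was another: Mrpl24 was highest (81.8 CPM per kb in Susd2-/- and 91.0 in WT cells), before Mrpl30 (60.5 and 84.7) and Mrpl33 (58.2 and 71.0), and Mrpl12 had 25.5 and 32.1. The 3 members highest at day 0 include the one that fell and 2 that did not pass in WT cells. The day 0 level enters both this order and the fold change, so they are not independent. Averaged over all libraries, Mrps25 (5.79 CPM per kb), Mrpl17 (6.36) and Mrps35 (8.94) were lowest, and each of these has an annotated transcript of at least 4162 bases. The median member had 64.0 ± 1.61 CPM in Susd2-/- and 62.3 ± 4.40 CPM in WT cells at day 3, against 22.2 ± 2.13 and 25.5 ± 0.106 CPM at day 0 (SD over 2 libraries, with no length term).

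**Figure D3:**
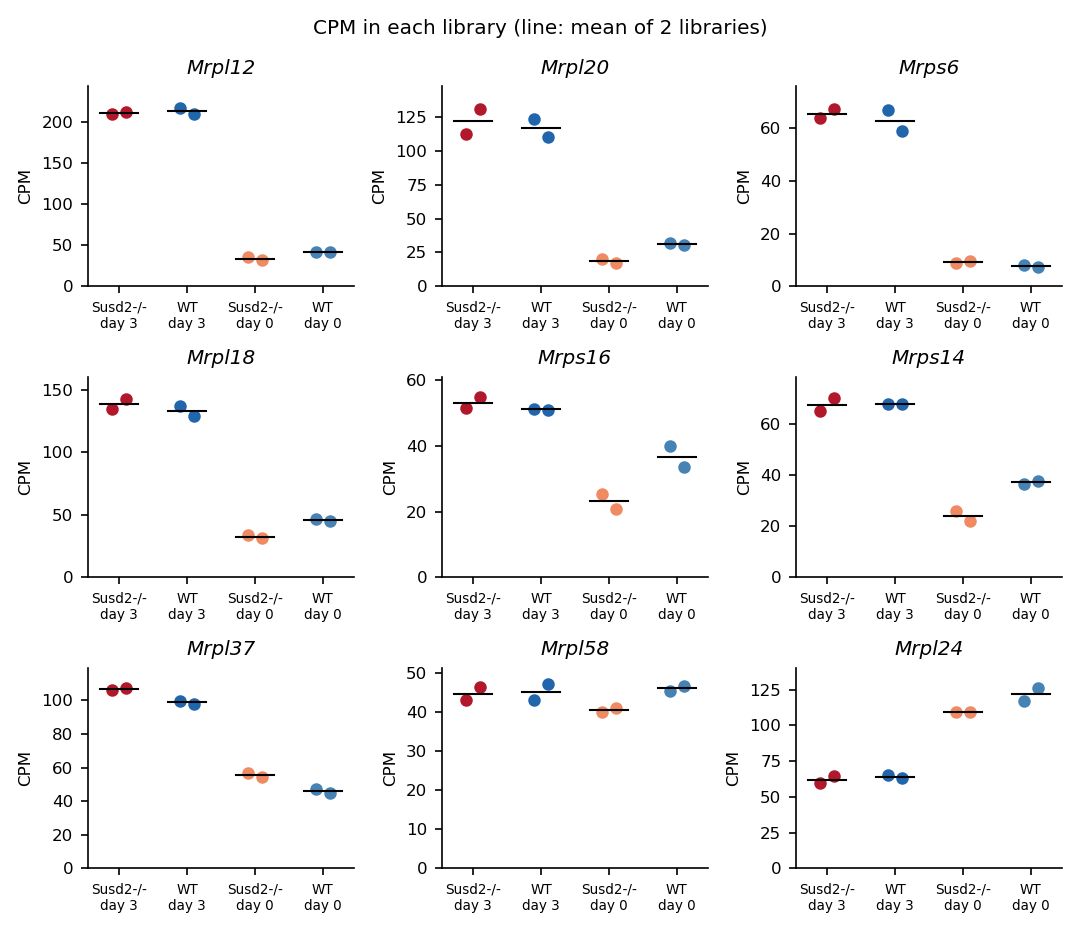
CPM of 9 members in each of the 8 libraries, with 1 point per library and a line at the mean of 2 libraries. Mrpl12, Mrpl20, Mrps6 and Mrpl18 are several-fold higher at day 3, Mrps16 and Mrps14 are lower in Susd2-/- than in WT cells at day 0 and did not pass at day 3, Mrpl37 is higher in Susd2-/- at day 0, Mrpl58 runs from 39.9 to 47.1 CPM and Mrpl24 is lower at day 3.

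Between genotypes at day 0, a share of the members was modestly lower in Susd2-/- cells. Of 76 members, 25 were lower (12.1% of all genes tested were lower) and 1 was higher (11.5% of all genes tested), and 50 did not pass; 23.6% of all genes tested changed in either direction. The median log2 fold change of Susd2-/- over WT was -0.18 over all members, beside 0.01 over all genes tested, and the estimates ran from -0.71 to 0.27. The 25 lower members had a median of -0.48. By subunit, 17 of 50 large subunit members were lower and 1 was higher, and 8 of 25 small subunit members were lower, with medians of -0.20 and -0.10.

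Mrpl20 showed the largest difference, with 20.5 and 17.5 CPM in Susd2-/- cells at day 0 against 32.0 and 30.2 CPM in WT cells. Its log2 fold change of -0.71 ± 0.101 (SE) is a level at 61.1% of WT (adjusted p = 6.67e-05, edgeR). Mrps16 (chromosome 14, 20389304 to 20393634, minus strand), a core protein of the small subunit and the printed window with the ETS letters at 2 places, had 25.5 and 20.6 CPM in Susd2-/- against 39.8 and 33.4 CPM in WT cells (-0.67 ± 0.108 SE, adjusted p = 0.000213, edgeR). Mrps14 (chromosome 1, 160195215 to 160202170, plus strand), a core protein of the same subunit, had 26.0 and 21.8 CPM in Susd2-/- against 36.6 and 37.6 CPM in WT cells (-0.63 ± 0.0916 SE, adjusted p = 6.01e-05, edgeR). The Susd2-/- libraries were below both WT libraries for each of these 3 members.

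Mrpl18, which binds 5S rRNA in its bacterial form, had 34.0 and 31.3 CPM in Susd2-/- against 47.0 and 44.9 CPM in WT cells at day 0 (-0.49 ± 0.0755 SE). Mrpl30, a large subunit protein, had 60.9 and 56.4 CPM against 82.2 and 81.9 CPM (-0.48 ± 0.0756 SE), and this member did not pass between the days in WT cells. Mrpl48, found only in mitochondrial ribosomes, had 24.1 and 22.5 CPM against 36.5 and 32.5 CPM (-0.57 ± 0.0932 SE). Mrps28 and Mrps22 were lower by 0.62 ± 0.123 and 0.53 ± 0.103 on the log2 scale. The calls of Mrpl20, Mrps16, Mrps14, Mrpl18, Mrpl30, Mrpl48, Mrps28, Mrps22, Mrps31, Mrpl40 and Mrpl41 held without any 1 of the 8 libraries, which makes 11 of the 26.

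Mrpl12 was lower by 0.33 ± 0.0726 (adjusted p = 0.00272), and this call was lost without Susd2-/- day 0 library 4 (adjusted p = 0.0662). Mrps5 (-0.30 ± 0.0763), Mrpl1 (-0.30 ± 0.0994) and Mrpl45 (-0.33 ± 0.0952) were also lower. Each of these calls was lost without Susd2-/- day 0 library 4 or without WT day 0 library 3, and those of Mrps5 and Mrpl1 also without Susd2-/- day 0 library 3, with adjusted p of up to 0.144 for Mrps5, 0.417 for Mrpl1 and 0.244 for Mrpl45. Mrpl37, a large subunit protein found only in mitochondrial ribosomes, was the member higher in Susd2-/- cells, with 56.6 and 54.2 CPM against 47.4 and 44.7 CPM in WT cells (0.27 ± 0.0708 SE, adjusted p = 0.00999, edgeR). This call was lost without Susd2-/- day 0 library 3 or either WT day 0 library (adjusted p of up to 0.169). Without Susd2-/- day 0 library 4 the count of changed members was 13, and without WT day 0 library 3 it was 17. Counting the 2 day 0 libraries of each genotype as 1 left 7.

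**Figure D4:**
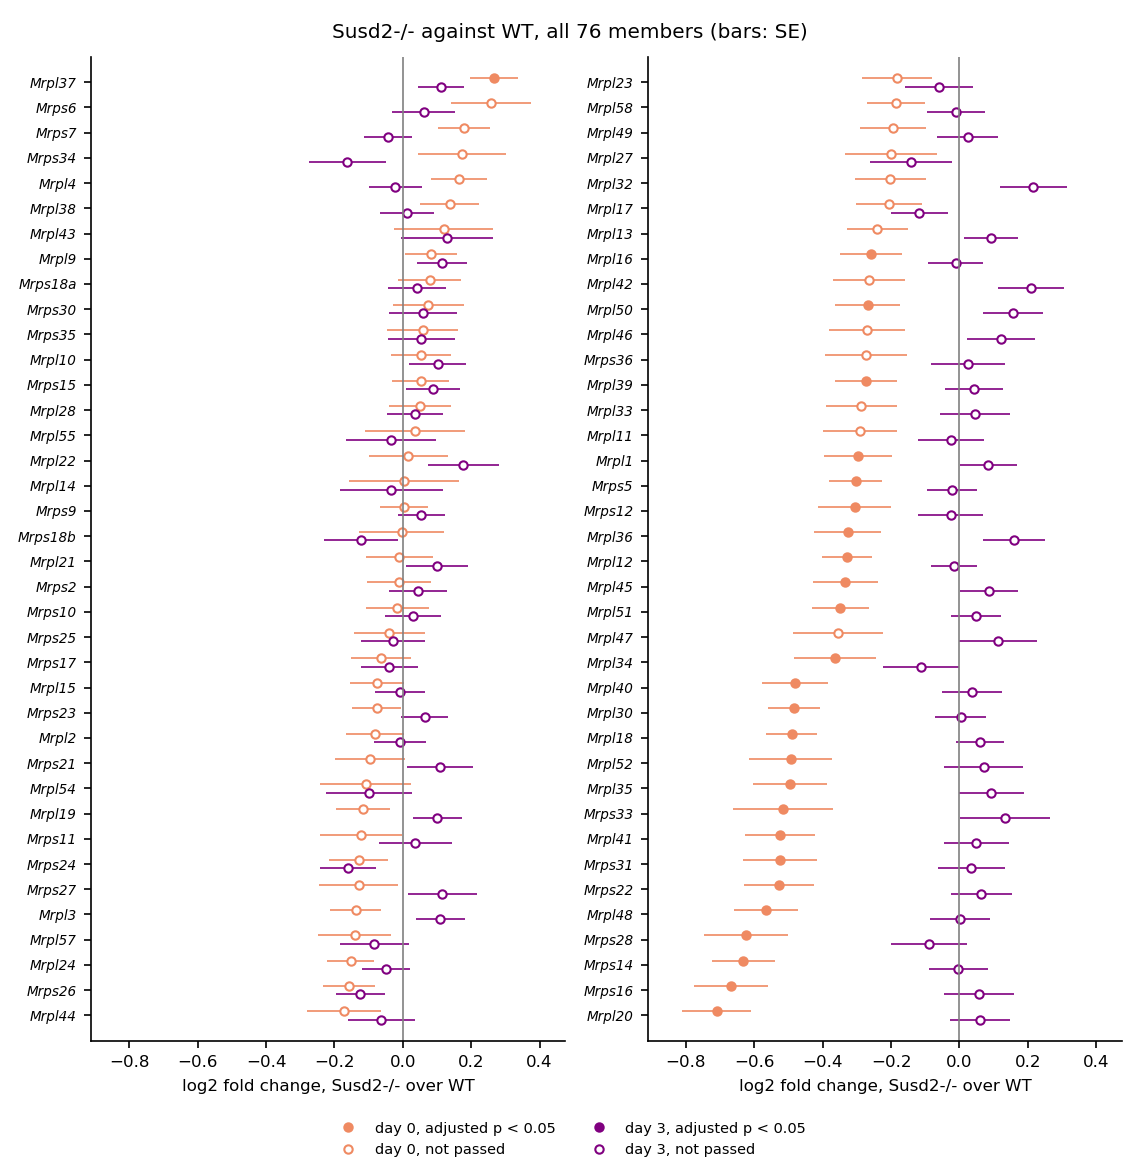
Log2 fold change of Susd2-/- over WT for each of the 76 members at day 0 (orange) and day 3 (purple), with bars for 1 SE, filled points for members past the test and open points for those not. At day 0 the points run from -0.71 to 0.27 with 26 filled, and at day 3 none is filled and no point is farther than 0.22 from 0 in log2 units.

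The day 0 libraries also differed between genotypes in other ways. Of 4 T cell markers 2 were lower in Susd2-/- cells, with a summed level of 1456 and 1372 CPM against 1708 and 1672 CPM in WT cells, and of 2 CD8 markers 1 was lower. The erythroid marker Hbb-bs was lower too, while the other lists (B cell, NK cell, dendritic cell, neutrophil, platelet and Cd4) held no marker past the test. Cytosolic ribosomal protein genes took 9.41% and 8.69% of counts in Susd2-/- against 12.6% and 12.4% in WT libraries, and genes of the mitochondrial genome 1.66% and 1.63% against 2.03% and 2.07%. Of 5 monocyte and macrophage markers 4 were higher in Susd2-/- cells at day 0, with a summed level of 81.9 and 78.8 CPM against 36.8 and 39.5 CPM in WT cells. Of 2 plasma cell markers tested both were lower, and the 3 markers of that list summed to 7.15 and 6.02 CPM against 35.4 and 33.7 CPM, with Mzb1 below 0.07 CPM throughout. Their part in the lower levels of members was not tested.

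At day 3 no member differed between Susd2-/- and WT cells by edgeR. Of all genes tested 0.137% differed, 0.0498% being higher and 0.0872% lower in Susd2-/- cells. At an unadjusted p below 0.05 there were 2 members, and DESeq2 and limma voom called none. The median log2 fold change was 0.04, beside 0.00 for all genes tested. The largest estimate was that of Mrpl32, a protein matured by a mitochondrial protease, with 51.8 ± 3.31 CPM in Susd2-/- and 44.6 ± 5.36 CPM in WT cells (SD, n = 2 each), a log2 fold change of 0.22 ± 0.099 (SE, adjusted p = 0.606, edgeR). Standard errors ran from 0.066 to 0.151 over the members, and a missed test does not show that levels were the same. The model gave each gene the same spread in all 4 groups, although libraries varied by 10.0% at day 3 and 5.35% at day 0. Standard errors of the genotype comparisons may thus be too small at day 3 and too large at day 0. Without WT day 3 library 1, Mrpl42 alone passed (adjusted p = 0.0238), against 0.62 with all libraries.

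Day 3 values of 3 members that were lower in Susd2-/- cells at day 0 are given here. Mrpl20 had 112 and 131 CPM in Susd2-/- cells at day 3 against 123 and 110 CPM in WT cells. Mrps16 had 51.4 and 54.7 CPM against 51.1 and 50.9 CPM, and Mrps14 had 64.8 and 70.0 CPM against 67.5 and 67.7 CPM. The libraries of the 2 genotypes overlapped for Mrpl20 and Mrps14, and for Mrps16 the gap was under 1 CPM.

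The interaction of genotype and day tests whether the rise by day 3 differed between genotypes. It was past the test for 20 members, all with a larger rise in Susd2-/- cells (6.6% of all genes tested), and for 0 members in the other direction (6.88% of all genes tested); 13.5% of all genes tested were called. Its median was 0.19 on the log2 scale over all members, beside -0.01 over all genes tested, and 62 of 76 members had the larger rise in Susd2-/- cells. It shares the day 0 libraries with the day 0 comparison of genotypes, so the values are given side by side and are not separate evidence. For Mrpl20 the interaction was 0.77 ± 0.134 (adjusted p = 0.00101, edgeR), from a rise of 2.68 in Susd2-/- and 1.91 in WT cells. For Mrps16 it was 0.72 ± 0.149, from 1.20 in Susd2-/- and 0.48 in WT cells. For Mrps14 it was 0.63 ± 0.125, for Mrps22 0.59 ± 0.136, for Mrpl48 0.57 ± 0.128, for Mrpl18 0.55 ± 0.103 and for Mrpl30 0.49 ± 0.106. These 7 calls held without any 1 library. The count of 20 was 8 without Susd2-/- day 3 library 2, 10 without Susd2-/- day 0 library 4 and 13 without WT day 0 library 4. It was 2 with the day 0 libraries of each genotype counted as 1.

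Other genes of mitochondrial translation were read in lists chosen for their function. Of 6 mitochondrial ribosome proteins whose symbols fall outside the rule, all 6 rose in both genotypes, among them Ptcd3 (1.49 in Susd2-/- and 1.40 in WT, log2) and Dap3 (0.89 and 0.88). Of 28 genes of ribosome assembly and rRNA modification, 22 rose and 3 fell in Susd2-/- cells and 21 rose and 4 fell in WT cells. Among all genes tested, 36.7% rose and 39.7% fell in Susd2-/- and 36.2% rose and 39.0% fell in WT cells. Ddx28, a helicase of large subunit assembly, rose by 2.37 in Susd2-/- and 1.85 in WT cells, whereas Mettl17 fell by 1.13 and 1.19. Their median log2 fold changes were 0.86 and 0.67, against 1.51 and 1.17 for the members. No test of the difference between lists was made.

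Of 16 translation factors tested, 11 rose and 1 fell in Susd2-/- cells, and 9 rose and 3 fell in WT cells. The elongation factors rose most, with Gfm1 at 2.38 in Susd2-/- and 2.24 in WT cells, Tsfm at 1.97 and 1.82 and Tufm at 1.90 in both. Of 20 mitochondrial aminoacyl-tRNA synthetase genes, which charge tRNAs, 12 rose in each genotype, and 3 fell in Susd2-/- and 1 in WT cells. Both mitochondrial rRNAs rose, mt-Rnr1 by 0.79 in Susd2-/- and 0.52 in WT cells and mt-Rnr2 by 0.58 and 0.22, in libraries made from poly(A) RNA. Of the 13 proteins of the mitochondrial genome, which are what the ribosome translates, 1 rose and 1 fell in Susd2-/- cells, and 0 rose and 6 fell in WT cells. Their median log2 fold changes were 0.03 and -0.28. mt-Co1, the catalytic subunit of cytochrome oxidase, fell by 0.58 and 0.91.

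Cytosolic ribosomal proteins, which build the ribosome outside mitochondria, fell more often than they rose in WT cells. Of 81 tested, 28 rose (34.6%) and 29 fell (35.8%) in Susd2-/- cells, with a median of 0.01. These shares are near those of all genes tested, 36.7% and 39.7%. In WT cells 9 rose (11.1%) and 61 fell (75.3%), with a median of -0.52, beside 36.2% and 39.0% of all genes tested. At day 0, 71 of the 81 were lower in Susd2-/- than in WT cells and 0 were higher, with a median of -0.52. The mitochondrial members had 25 lower of 76 and a median of -0.18. At that day 12.1% of all genes tested were lower and 11.5% higher. At day 3 no gene of either list passed the test between genotypes, where 0.137% of all genes tested differed. The interaction was past the test for 64 of the 81, all with the larger value in Susd2-/- cells (6.6% of all genes tested).

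Other genes of the pathway were compared between genotypes at day 0 too, where 12.1% of all genes tested were lower and 11.5% higher in Susd2-/- cells. Of the 6 ribosome proteins outside the rule, Aurkaip1 (-0.49) and Chchd1 (-0.38) were lower in Susd2-/- cells. Of the assembly genes 9 were lower and 1 was higher, and of the 16 translation factors 1 was lower (Mtif3, -0.46), 6.25% of that list. Of the 20 aminoacyl-tRNA synthetases 3 were higher (Tars2, 0.49, Hars2, 0.40, and Cars2, 0.28) and 2 were lower (Rars2, -0.44, and Iars2, -0.21). Both mitochondrial rRNAs were lower, mt-Rnr1 by 0.24 and mt-Rnr2 by 0.37 on the log2 scale. Of 12 genes of mitochondrial DNA replication and transcription 3 were lower and 2 were higher, and of the 13 mitochondrially encoded proteins 4 were lower. The day 0 estimates of these 13 ran from -2.69 to -0.11 on the log2 scale, with a median of -0.31. At day 3 no gene of the lists in this paragraph passed except mt-Nd3. It was lower by 2.14 on the log2 scale at levels of 0.984 CPM in Susd2-/- and 4.38 CPM in WT cells.

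**Figure D5:**
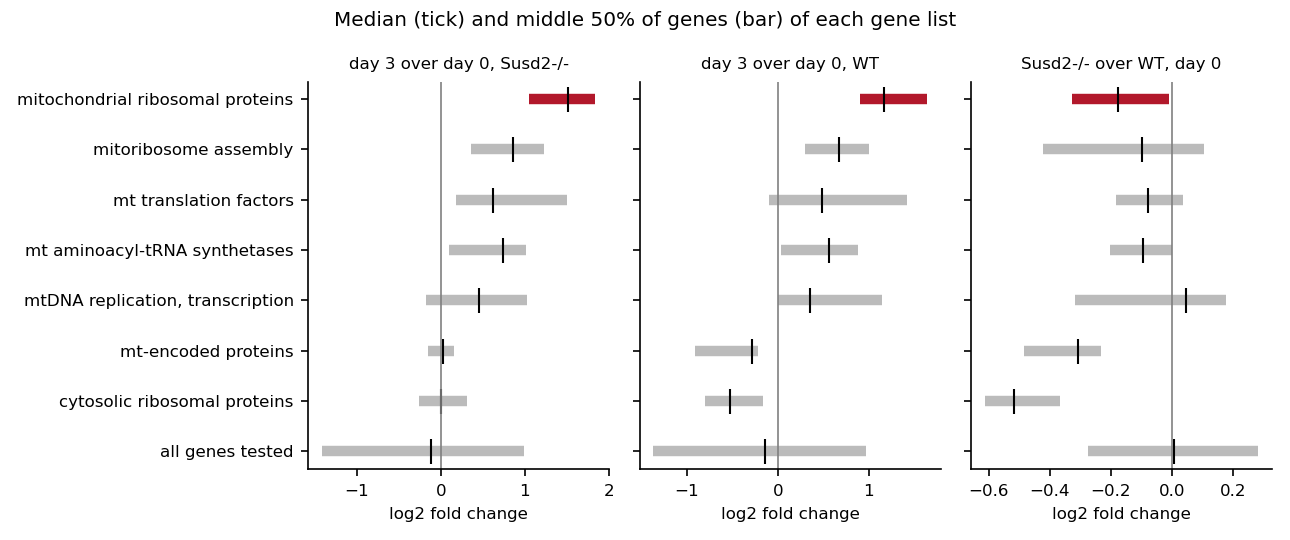
Median (tick) and middle 50% of genes (bar) of the log2 fold change in the mitochondrial ribosomal protein genes (red) and in other gene lists (grey), for day 3 over day 0 in Susd2-/- cells, day 3 over day 0 in WT cells and Susd2-/- over WT at day 0. The members' medians of 1.51 and 1.17 between the days lie right of those of the other lists, and at day 0 their median of -0.18 lies between 0.01 for all genes and -0.52 for cytosolic ribosomal proteins.

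Among regulators of mitochondrial biogenesis, 10 of 11 were tested, and 7 rose and 1 fell by day 3 in each genotype. The share that changed in either direction, 80%, was near that of all genes tested, 76.4% in Susd2-/- and 75.2% in WT cells. Rises alone were called for 36.7% and 36.2% of all genes tested. Nrf1, which encodes the factor that binds the NRF1 letters, had 103 and 104 CPM in Susd2-/- cells at day 3 against 59.8 and 57.8 CPM at day 0, and 97.5 and 99.6 CPM in WT cells at day 3 against 59.7 and 59.3 CPM at day 0. Gabpa, an ETS factor, rose by 0.41 in Susd2-/- and 0.28 in WT cells, and Yy1 did not pass in either (-0.22 and 0.06). Ppargc1b, a coactivator, fell by 1.44 and 0.82. Myc rose by 1.40 in Susd2-/- and 1.83 in WT cells. At day 0 Myc was higher in Susd2-/- cells (157 and 142 CPM against 106 and 113 CPM in WT, log2 fold change 0.45) and Tfam, which packages mitochondrial DNA, was lower (-0.30). At day 3 no regulator passed the test between genotypes.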

How the data were processed

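The authors deposited a table of unnormalized read counts for 27019 gene symbols in 15 columns, per the file header and its values. Per the labels, each column was 1 lane of a library made from poly(A) RNA with a stranded kit and sequenced as paired ends. Per the submitters' processing notes, the tools were HISAT2 2.1.0, Subread 2.0.1, fastp 0.23.2 and SAMtools 1.10 and the build GRCm38, with roles not stated. Nothing here says which annotation or strand setting the counting used, or how multi-mapped reads were handled.

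Lanes were summed to 8 libraries, 2 per group, and 1 library (WT day 3, library 2) had 1 lane. One edgeR 4.0.16 model (R 4.3.3) held the 4 groups, with TMM factors, filterByExpr (16057 genes kept) and robust quasi-likelihood testing on 4 residual degrees of freedom. Benjamini-Hochberg adjustment ran over the 16057 genes of each comparison, and a change means an adjusted p below 0.05. Each SE was had from the log2 fold change and the square root of its F value. Since separate mice are not stated, p-values reflect spread among these libraries alone, possibly technical spread. Day 0 libraries of a group were close: chi-square per degree of freedom was 3.37 in WT and 6.30 in Susd2-/-, against 3.01 to 3.17 between lanes.

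Counts of the 4 pseudogene rows (at most 179 in a library) were left out, and members could have lost reads to them. Coordinates and transcript lengths came from GENCODE M21, and promoter windows from RefSeq. The procedure was tested on simulated data. Alternatives were DESeq2 1.42.0, limma voom (limma 3.58.1), RLE factors, total counts, other filters, lane 1, only the libraries compared, a replicate block and leaving out each library. Members, lists and tests were chosen with earlier results of these data known. Members named were the 5 highest and 5 lowest by fold change between days, the 5 of smallest adjusted p for genotype and interaction, members of known special role, and the 3 highest and 3 lowest per length. Pathway lists gave the 3 genes of smallest adjusted p in each comparison. Mrpl40, Mrpl48, Mrps28 and Mrps31, the pathway genes beyond that rule and the 4 printed promoter windows were chosen after their values were seen.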

Additional observations from a re-analysis of the deposited data

Results flagged for a closer look

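The effect of genotype differed between the days for 20 members by the interaction test of edgeR (adjusted p below 0.05). In all 20 the value of Susd2-/- over WT was higher at day 3 than at day 0. Of the 20, 19 were also called lower in Susd2-/- cells at day 0. The interaction shares the day 0 libraries with that comparison, so these calls are not separate evidence. The difference of the effects on the log2 scale was 0.77 for Mrpl20, 0.72 for Mrps16, 0.63 for Mrps14, 0.59 for Mrps22 and 0.55 for Mrpl18. It was 0.57 for Mrpl41, 0.49 for Mrpl30 and for Mrpl36, 0.47 for Mrpl42, 0.42 for Mrpl45 and for Mrpl50, and 0.31 for Mrpl12. The calls of Mrpl41, Mrpl36, Mrpl42, Mrpl45, Mrpl50 and Mrpl12 were lost without Susd2-/- day 0 library 4 and without Susd2-/- day 3 library 2, with adjusted p of up to 0.0596, 0.11, 0.177, 0.207, 0.149 and 0.21 over all single libraries left out.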

How the results depend on the processing

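Over 3654 values of single members under the alternatives, 3495 stayed on the same side of the threshold, 109 no longer passed and 50 newly passed. Changes of sign while called numbered 0. The 3495 include values that changed sign and passed in neither fit. The counts of changed members in the day comparisons stayed between 74 and 76 in Susd2-/- and between 72 and 74 in WT cells with 1 library left out. At day 0 the count of changed members between genotypes, 26, became 16 with lane 1 alone, 7 with the day 0 libraries of each genotype counted as 1, and 13 to 32 with 1 library left out. The interaction count, 20, became 7, 2 and 8 to 27 under the same settings, and the day 3 count between genotypes was 0 or 1 with 1 library left out. DESeq2 gave 20 at day 0, 19 for the interaction and 0 at day 3, and limma voom gave 21 at day 0, 20 for the interaction and 0 at day 3.

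The median log2 fold change of day 3 over day 0, 1.51 in Susd2-/- and 1.17 in WT cells, was 1.31 and 0.99 with total counts in place of TMM, where the median of all genes was -0.32 in both. It was 1.35 and 0.99 with at least 10 CPM asked in 2 libraries, and 1.46 to 1.64 and 1.15 to 1.29 with 1 library left out. With mitochondrially encoded genes left out of the total, the members' share was 0.243% and 0.241% in the WT day 0 libraries. A replicate block on the library numbers gave 22 changed members at day 0, 0 at day 3 and 16 for the interaction. Deviations of same-numbered libraries correlated at 0.01 at day 0 and -0.01 at day 3. With 2 libraries in each group this rests on 1 difference per group. It cannot tell whether same-numbered libraries shared an animal or a day of preparation, which the labels do not say. Leaving out members with exon overlap was chosen after seeing the data and gave 23 of 53 changed at day 0 and 17 for the interaction.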

Other observations

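Members classed by their symbols as having a bacterial counterpart and members classed as mitochondria-specific were read apart. Of the 44 in the counterpart class, 42 rose and 1 fell by day 3 in Susd2-/- and 41 rose and 1 fell in WT cells. Their median log2 fold changes were 1.55 and 1.45. Of the 31 mitochondria-specific members, 30 rose in each genotype, with medians of 1.48 and 1.11. Of all genes tested, 36.7% rose in Susd2-/- and 36.2% in WT cells. At day 0, 13 of 44 and 12 of 31 were lower in Susd2-/- than in WT cells, with medians of -0.15 and -0.18, where 12.1% of all genes tested were lower.

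Transcript length was set beside the day 0 difference between genotypes. Over the 76 members, the log2 fold change of Susd2-/- over WT at day 0 and the log10 transcript length had a Pearson r of -0.01 and a Spearman rho of -0.01, and over 15737 genes with a length these were 0.08 and 0.16. Genes share libraries and are not independent. Of members of up to 1324 bases, the median length, 14 of 38 were lower, with a median log2 fold change of -0.22, and of longer members 11 of 38, with a median of -0.16. Among all genes with a length, 16.5% of those up to 1324 bases and 10.9% of longer ones were lower.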
